A study of Mus musculus with 4 samples.

Results

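Neurons that signal with glutamate, GABA or glycine load the transmitter into vesicles with carriers of the vesicle membrane, and carriers of the plasma membrane later take it up again or bring in its precursor glutamine. Sensory neurons of the dorsal root ganglion release glutamate at their endings in the spinal cord, and the ganglion also holds satellite glia, Schwann cells, blood vessels and immune cells. The 8 genes described here were taken by symbol from the 48431 genes of the deposited table, and each symbol occurred in 1 row. They are the vesicular glutamate transporters Slc17a6 (VGLUT2), Slc17a7 (VGLUT1) and Slc17a8 (VGLUT3), the vesicular carrier of GABA and glycine Slc32a1 (VGAT), the glutamate uptake carriers Slc1a1 (EAAC1) and Slc1a2 (GLT-1), the glycine uptake carrier Slc6a9 (GlyT1) and the glutamine uptake carrier Slc38a1 (SNAT1). No glutaminase gene is among them.

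All 4 libraries came from 1 group. They are ribosome footprints, the short mRNA pieces that ribosomes shield from digestion, of dorsal root ganglia from female wild-type mice of the SW strain that had received paclitaxel, a microtubule-binding chemotherapy drug, at 4 mg/kg by intraperitoneal injection, 4 times on alternate days. The age of the mice and whether replicates were separate animals or pools are not given in the sources used here. A p-value here therefore reflects the spread among libraries, which may be technical. The SE and p-values of limma also draw on the variance of other genes of similar level, not only on the gene's own 4 libraries. Because every library came from treated mice and untreated mice were not analysed here, no level below can be attributed to paclitaxel, and the effect of the drug was not tested. In footprints of whole ganglia, fewer cells of a type, less RNA per cell and fewer ribosomes per mRNA cannot be told apart.

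Values are reads scaled to a total of 1000000 assigned reads a library (CPM). Where genes are compared with each other, CPM are divided by the length of each gene's longest coding sequence in kilobases. The libraries held 5731508, 9255061, 14633415 and 10424946 assigned reads in replicates 1 to 4, so 1 read was worth 0.174, 0.108, 0.0683 and 0.0959 CPM. Neuronal and glial markers were abundant. The 7 pan-neuronal markers summed to between 6912 and 8271 CPM, led by Tubb3, Uchl1 and Stmn2, the 5 satellite glia markers to between 6795 and 7900 CPM and the 4 Schwann cell markers to between 12271 and 19007 CPM. Of 6 oligodendrocyte and astrocyte markers 4 were detected, and their sum was 32.2 to 48.2 CPM. Of 5 motor neuron markers 2 were detected, with Isl2, which sensory neurons also express, at 168 ± 13.7 CPM (SD, n = 4) and the defining gene Chat at 0.424 ± 0.251 CPM. The 3 muscle markers summed to between 775 and 3420 CPM, the widest range relative to its mean of the 10 marker lists.

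The coding sequences of the vesicular glutamate transporters are related, and footprints had 28 to 34 nt. Slc17a6 and Slc17a7 shared no identical coding run longer than 21 nt, Slc17a6 and Slc17a8 none longer than 25 nt, and Slc17a7 and Slc17a8 none longer than 17 nt. Of all coding words of 28 nt, 100% were unique to each of these 3 genes among the annotated transcripts of GENCODE M21. Allowing mismatches, the most alike 28-nt windows differed at 1 base between Slc17a6 and Slc17a7, at 1 base between Slc17a6 and Slc17a8 and at 2 bases between Slc17a7 and Slc17a8. The 34-nt stretch in which the 3 coding sequences are most alike is shown so that all 3 can be compared over the length of a footprint. The lines give the coding strand 5′ to 3′, and capitals mark bases that differ from Slc17a6.
Slc17a6: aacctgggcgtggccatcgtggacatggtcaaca
Slc17a7: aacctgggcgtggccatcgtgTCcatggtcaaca
Slc17a8: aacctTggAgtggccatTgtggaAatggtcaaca
On GRCm38 the stretches lie at chr7:51625462-51625495 (plus strand), chr7:45168896-45168929 (plus strand) and chr10:89606615-89606648 (minus strand), each within 1 coding exon. Slc17a7 differs from Slc17a6 at 2 of these bases and Slc17a8 at 4. How many mismatches the authors' alignment allowed is not given in the sources used here, so reads exchanged between these genes were not tested.

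Slc17a6 (ENSMUSG00000030500.6, chromosome 7, 51622006 to 51671119, plus strand, 12 coding exons), whose protein fills synaptic vesicles with glutamate, was the highest of the 8 genes. Its values were 184, 207, 188 and 210.1 CPM in replicates 1 to 4, on 1054 to 2758 reads, with a mean of 197 ± 13.1 CPM (SD, n = 4). The 4 libraries lay close together, the highest being 1.14 times the lowest. Per kilobase of coding sequence it stood at 113 ± 7.48 CPM, above 90.9% of the 14087 protein-coding genes ranked. It was 7.31-fold above the median detected gene, which had 15.0 ± 0.859 CPM per kilobase (log2 2.87 ± 0.08 SE; limma adjusted p = 5.7e-11).

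Slc17a7 (ENSMUSG00000070570.5, chromosome 7, 45163949 to 45176142, plus strand, 13 coding exons) encodes the vesicular carrier that dominates in the forebrain cortex. It stood at 56.0, 80.0, 93.4 and 69.6 CPM, on 321 to 1367 reads, with a mean of 74.8 ± 15.8 CPM. Replicate 1 was the lowest and replicate 3 the highest, 1.67 times apart. Slc17a7 was also above the median gene (log2 1.45 ± 0.11 SE; limma adjusted p = 6.0e-07). Slc17a8 (ENSMUSG00000019935.16, chromosome 10, 89574020 to 89621253, minus strand, 12 coding exons), known in the mouse from low-threshold mechanoreceptors with unmyelinated fibres and from inner hair cells of the ear, was close to the bottom. It stood at 2.79, 2.27, 2.94 and 4.89 CPM on 16, 21, 43 and 51 reads. Replicate 4 was the highest, and its 95% Poisson interval of 3.64 to 6.43 CPM, which covers counting error only, overlapped that of replicate 3 (2.13 to 3.96 CPM) and of replicate 1 (1.60 to 4.53 CPM) but not that of replicate 2 (1.40 to 3.47 CPM).

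Summed per kilobase, the footprints of the 3 vesicular glutamate transporters were 71.95% ± 4.14 Slc17a6, 26.9% ± 4.30 Slc17a7 and 1.14% ± 0.383 Slc17a8 (SD, n = 4). Slc17a6 held the majority in every library, with 75.9%, 71.7%, 66.3% and 73.9% in replicates 1 to 4. Its share of the raw reads in replicate 3 had a 95% Wilson interval of 64.7% to 67.6%, below the intervals of the other libraries, which together ran from 69.8% to 78.0%. Slc17a6 was 2.67-fold above Slc17a7 on the log2(CPM per kilobase + 0.5) scale (log2 1.42 ± 0.30 SD) and 50.9-fold above Slc17a8 (5.67 ± 0.35), and Slc17a7 was 19.0-fold above Slc17a8 (4.25 ± 0.52). Each order was seen in 4 of 4 libraries, with an exact sign-flip permutation p of 0.13 (2-sided), the smallest that 4 libraries allow, so none of these ratios could pass 0.05.

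**Figure D1:**
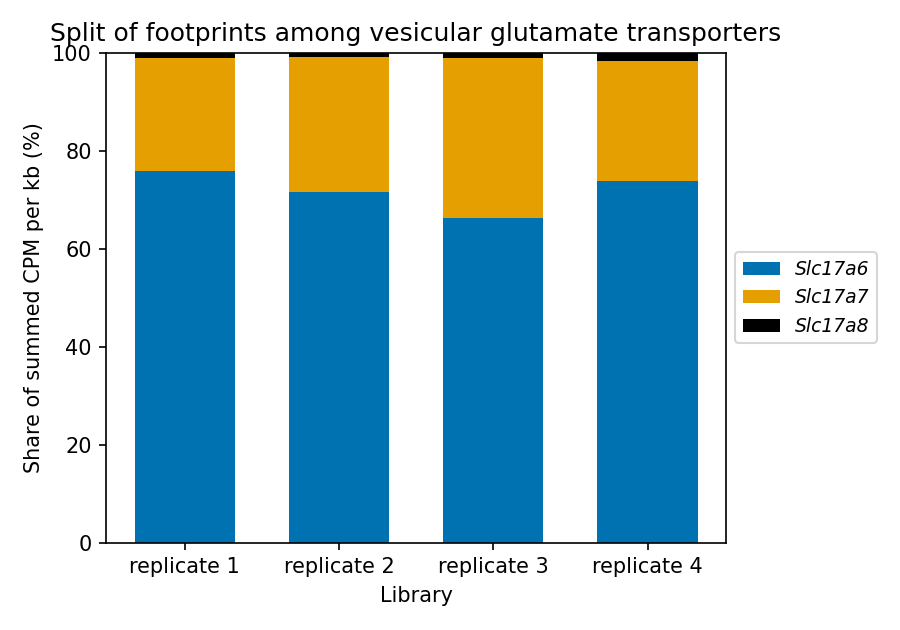
Stacked bars give each library's split of the summed CPM per kilobase of coding sequence among Slc17a6, Slc17a7 and Slc17a8, in percent, with 1 bar per replicate. Slc17a6 takes 66.3% to 75.9% of each bar, and Slc17a8 is the thin band at the top.

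The vesicular carrier of inhibitory transmitters was far lower. Slc32a1 (ENSMUSG00000037771.11, chromosome 2, 158610767 to 158615748, plus strand, 2 coding exons) stood at 3.66, 3.89, 3.96 and 4.99 CPM, on 21, 36, 58 and 52 reads. All 4 counting intervals overlapped, the lowest bound being 2.27 CPM and the highest 6.54 CPM. It was 4.99-fold below the median gene (log2 −2.32 ± 0.12 SE; limma adjusted p = 6.4e-09) and above 14.4% of genes per kilobase. Slc17a6 was 36.5-fold above it (log2 5.19 ± 0.12 SD, higher in 4 of 4 libraries; exact permutation p = 0.13). The 3 vesicular glutamate transporters together had 60.7 ± 6.89 times the CPM per kilobase of Slc32a1, with 51.4 in the lowest library and 66.9 in the highest. Nothing was added to the values for this ratio, unlike the fold before it.

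Low levels were also found for the enzymes that make GABA, named after their values were seen. Gad1 stood at 2.44, 2.81, 4.31 and 5.18 CPM, and Gad2 at 0.698, 1.62, 2.19 and 2.11 CPM. Both lay below the median gene, by a log2 difference of −2.63 ± 0.16 SE for Gad1 (limma adjusted p = 3.1e-08) and −3.47 ± 0.17 SE for Gad2 (limma adjusted p = 7.9e-09). Of the 5 genes listed as markers of inhibitory spinal cord neurons, 2 were detected in every library, Gad1 and Slc6a13, and the list summed to 35.7 to 52.9 CPM. Slc6a13 made up 39.7 ± 6.92 CPM of that sum, Pax2 was at 0.599 ± 0.383 CPM and Lbx1 at 0 in replicates 1 and 2. The sum thus mostly follows Slc6a13, and whether that gene is specific to such neurons was not tested. The part of spinal cord tissue in the Slc32a1 reads was not tested.

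Of the glutamate uptake carriers, Slc1a2 (ENSMUSG00000005089.15, chromosome 2, 102658659 to 102790784, plus strand, 11 coding exons), the main astrocyte carrier in the brain, was near the median gene. Its values were 23.7, 17.2, 23.7 and 30.5 CPM, with replicate 2 lowest and replicate 4 highest. Its mean of 13.9 ± 3.17 CPM per kilobase did not differ from the median gene by the test used (log2 −0.14 ± 0.12 SE; limma adjusted p = 0.28). Without replicate 4 it was called below the median (log2 −0.26; limma adjusted p = 0.031), and without replicate 2 the difference was 0.0053 (limma adjusted p = 0.96, the highest over the alternatives, of which 0.031 was the lowest). The satellite glia markers summed to 6869, 6795, 7748 and 7900 CPM, also lowest in replicate 2 and highest in replicate 4. Apoe made up most of that sum, at 6502 ± 522 CPM, and was the only gene of the list highest in replicate 4. Glul, Fabp7 and Kcnj10 were highest in replicate 3 and Gja1 in replicate 2. Fabp7 and Gja1 were lowest in replicate 1 rather than replicate 2. The 6 oligodendrocyte and astrocyte markers summed to 40.1, 32.2, 48.2 and 45.2 CPM, lowest in replicate 2 but highest in replicate 3. Aqp4, the astrocyte water channel of that list, stood at 11.2, 6.37, 13.1 and 12.9 CPM. The part of glial content in the Slc1a2 values was not tested.

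Slc1a1 (ENSMUSG00000024935.10, chromosome 19, 28835049 to 28913960, plus strand, 12 coding exons), a glutamate and cysteine carrier of neurons, was the lowest of the 8 genes at 1.40, 2.49, 2.53 and 2.78 CPM on 8, 23, 37 and 29 reads. Replicate 1 was the lowest, with a counting interval of 0.603 to 2.75 CPM that overlapped the others. Slc1a2 was 7.30-fold above Slc1a1 on the log2(CPM per kilobase + 0.5) scale (log2 2.87 ± 0.43 SD, higher in 4 of 4 libraries, exact permutation p = 0.13). With 0.1 added instead of 0.5 the log2 difference was 3.17. Only 23.9% of the 28-nt coding words of Slc1a1 were unique, because the gene 4430402I18Rik is annotated across its coding exons on the other strand. 4430402I18Rik itself had 5.46 ± 0.900 CPM, more than Slc1a1, and whether the counting used strand is not given in the sources used here. An alternative added after the data were examined counted only the unique words as length and left the reads unchanged. With it Slc1a2 was higher by a log2 difference of 1.25, and Slc1a1 was above Slc17a8 by 1.54 rather than below it. These values hold only if reads on shared words were left out of the counts, which is not known.

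Slc6a9 (ENSMUSG00000028542.17, chromosome 4, 117834506 to 117875198, plus strand, 13 coding exons), which clears glycine and is a glial carrier for the most part in the spinal cord, had among the steadiest values. It stood at 18.1, 16.9, 19.6 and 17.5 CPM, on 104 to 287 reads. The coefficient of variation over the libraries was 6.59%, against 7.91% from counting reads alone. On the log2(CPM per kilobase + 0.5) scale it was 1.56-fold below the median gene (log2 −0.64 ± 0.07 SE, limma adjusted p = 7.0e-06). On that scale Slc6a9 was 3.19-fold above Slc32a1 (1.68 ± 0.21 SD, higher in 4 of 4 libraries, exact permutation p = 0.13). With the mean instead of the longest coding length of a gene's transcripts, the log2 difference from Slc32a1 was 2.30. Its coding words were 83.4% unique, and the opposite-strand gene Ccdc24 that overlaps them had 3.97 ± 1.004 CPM. The coding words of Slc1a2 and Slc32a1 were 91.5% and 78.0% unique, with the antisense genes Gm13872 at 1.53 ± 0.389 CPM and Gm14205 at 0.480 ± 0.272 CPM.

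Slc38a1 (ENSMUSG00000023169.14, chromosome 15, 96571418 to 96642913, minus strand, 15 coding exons), which brings glutamine into cells, was the second highest gene per kilobase. Its values were 58.8, 80.2, 65.1 and 69.2 CPM, with replicate 1 lowest and replicate 2 highest, on coding words 99.6% unique, and its mean was 47.0 ± 6.17 CPM per kilobase. It was 3.04-fold above the median gene (log2 1.61 ± 0.09 SE; limma adjusted p = 2.6e-08). Its order against Slc17a7 was not settled. Slc38a1 was higher in 3 of 4 libraries and lower in replicate 3 (log2 0.15 ± 0.27 SD; exact permutation p = 0.25), and in CPM without the length correction the difference turned to −0.11.

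The order of the 8 genes by mean CPM per kilobase was Slc17a6 (113), Slc38a1 (47.0), Slc17a7 (42.6), Slc1a2 (13.9), Slc6a9 (9.43), Slc32a1 (2.62), Slc17a8 (1.79) and Slc1a1 (1.46). Of the 7 pairs of neighbours in this order, 5 kept their order in 4 of 4 libraries with a mean log2 difference larger than its SD. The exceptions were Slc38a1 with Slc17a7, and Slc17a8 with Slc1a1, which differed by 0.21 ± 0.39 (higher in 3 of 4 libraries; exact permutation p = 0.375). Among the 5, the narrowest gaps were Slc32a1 over Slc17a8 (0.48 ± 0.23) and Slc1a2 over Slc6a9 (0.51 ± 0.31), and the widest was Slc6a9 over Slc32a1. Which pairs kept their order depends on the coding length used. With the mean coding length Slc32a1 over Slc17a8 was 0.29 ± 0.24, no longer in the same order in every library (exact permutation p = 0.25). Slc38a1 over Slc17a7 was then 0.47 ± 0.27, in the same order in every library (exact permutation p = 0.13). All 8 genes were detected at 1 CPM or more in every library, against 62.6% of the protein-coding genes and 30.4% of all rows of the table. The members were chosen with earlier results of these data known, so this cannot be read as a trait of these carriers.

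**Figure D2:**
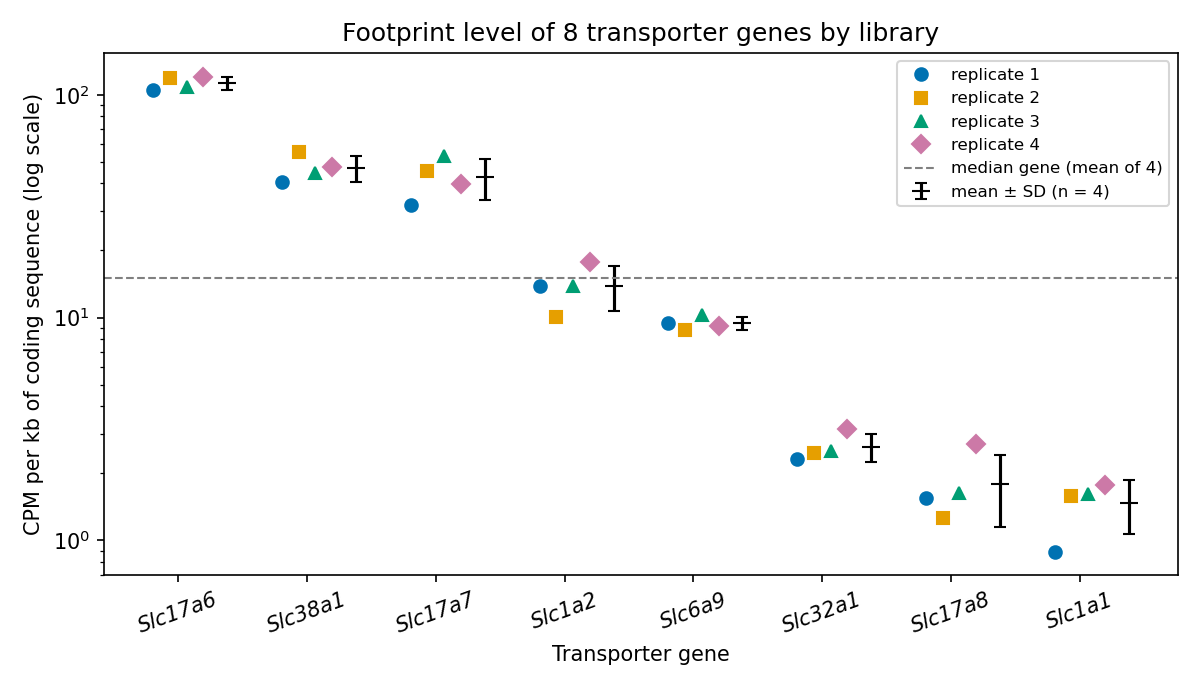
Each symbol is the CPM per kilobase of coding sequence of 1 gene in 1 library, on a log scale, with the mean ± SD of the 4 libraries beside it and the median detected gene as a dashed line. Slc17a6, Slc38a1 and Slc17a7 lie above that line in every library, Slc1a2 lies across it, and the other 4 genes lie below.

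All 8 genes passed the filter of a mean of 1 CPM. In the limma fit over 14090 protein-coding genes 3 of them were called above the median gene and 4 below, while 44.0% of all tested genes were called above and 48.1% below, or 92.2% either way. The share of calls is thus close to the background, and the calls say where each gene lies rather than that these genes are unlike others. The median log2 distance of the 8 genes from the median gene was −0.39, and that of all tested genes −0.10. The 3 called above were the glutamate vesicle carriers Slc17a6 and Slc17a7 and the glutamine carrier Slc38a1, and those called below were Slc6a9, Slc32a1, Slc17a8 and Slc1a1.

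None of the 8 genes varied between libraries more than genes of the same level at an adjusted p of 0.05, by limma's trended and robust prior variance with an F test, against 1.48% of 15728 genes called. At an unadjusted p under 0.05 it was 1 of 8, Slc17a7, against 6.56% of all genes. Its SD of log2(CPM + 0.5) was 0.31, where 0.15 was the trend for its level (variance ratio 4.41, adjusted p = 0.71 by the F test against limma's prior variance). The ratio was 1.96 without replicate 1 and 6.37 without replicate 4, and the adjusted p of that F test ran from 0.53 to 0.995 over the alternatives. The largest coefficient of variation was that of Slc17a8, 35.7% against 19.6% from counting reads alone. Slc17a7, Slc1a2 and Slc38a1 had 21.2%, 22.9% and 13.1%, against 4.05%, 7.01% and 4.11% from counting. For Slc32a1 and Slc1a1 the observed values of 14.3% and 26.8% were near the counting values of 16.7% and 24.0%. The median coefficient of variation was 17.7% for the 8 genes and 14.0% for all genes tested.

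**Figure D3:**
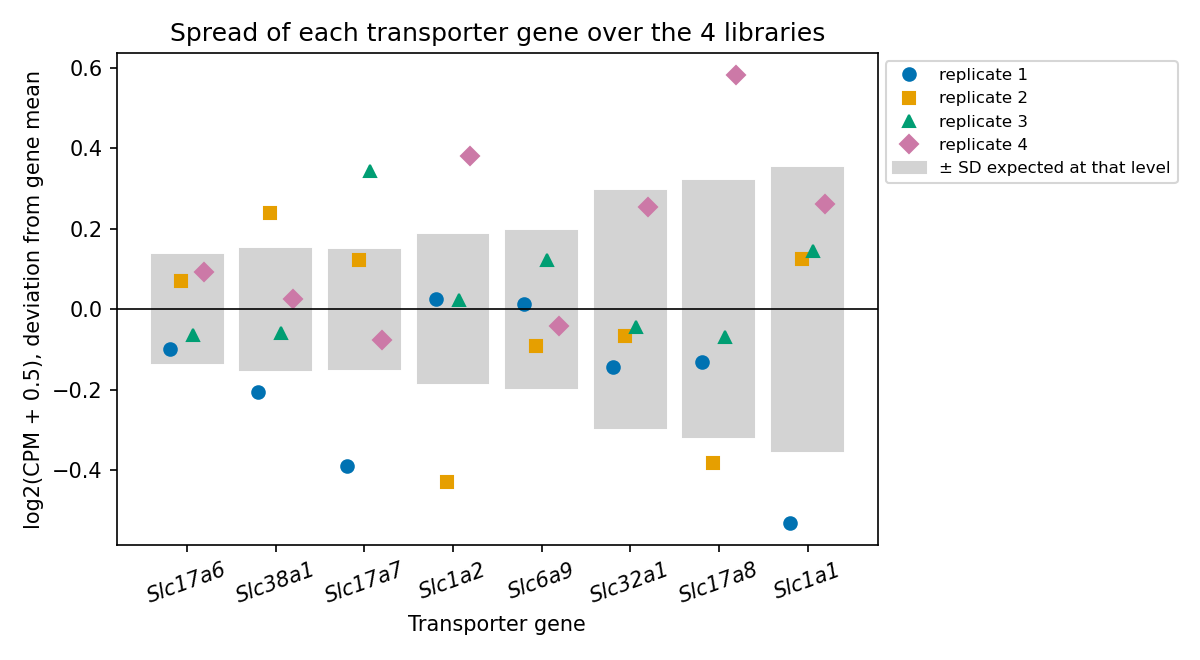
Each symbol is a library's deviation from the gene's mean in log2(CPM + 0.5), and grey boxes span ± 1 SD as the trend over all genes gives it for that level. Slc17a7 lies outside its box at −0.39 in replicate 1 and 0.34 in replicate 3, Slc1a2 at −0.43 in replicate 2 and 0.38 in replicate 4, Slc17a8 at −0.38 in replicate 2 and 0.58 in replicate 4, Slc38a1 at −0.21 in replicate 1 and 0.24 in replicate 2, and Slc1a1 at −0.53 in replicate 1.

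Replicate 1 was the lowest library for 5 of the 8 genes and the highest for none, and replicate 4 was the highest for 5 and the lowest for none. How often each library was lowest or highest over all genes was not counted, so these counts cannot be read as a trait of the 8 genes. Replicate 1 was also the shallowest library, with 5731508 assigned reads, and Slc1a1 rested on 8 reads there. The summed level of the 8 genes was 348, 409.6, 399.8 and 409.5 CPM in replicates 1 to 4. The sum of the pan-neuronal markers was also lowest in replicate 1, at 6912, 7782, 8271 and 7536 CPM. So was that of the 4 myelinated afferent markers, at 2931, 3534, 3604 and 3157 CPM, mostly from Nefh at 2700 ± 311 CPM. The sum of the 5 nociceptor markers was not, at 3914, 4158, 3464 and 3691 CPM. Some genes, named after their values were seen, departed from their list. Pvalb, a myelinated afferent marker, was highest in replicate 1, at 193, 93.9, 149 and 101 CPM. Calca, a nociceptor marker, was lowest there, at 604, 740, 774 and 737 CPM. Of the pan-neuronal list, Rbfox3 was lowest in replicate 4 and Syt1 in replicate 3. Muscle markers were highest in replicate 1, at 3420, 775, 1694 and 1042 CPM. Schwann cell markers were high in replicates 1 and 3, at 18757, 13763, 19007 and 12271 CPM. The part of tissue composition in the deviations of the 8 genes was not tested.

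Of 13 genes of glutamate and glutamine handling, 9 were called above the median gene and 4 below, where 44.0% of all tested genes were above and 48.1% below. The highest per kilobase were Slc38a2, another glutamine carrier, at 370.3 ± 14.8 CPM, the glutamine synthetase gene Glul of satellite glia at 273 ± 29.4 CPM, and Slc3a2, a chaperone subunit of amino acid exchangers, at 218 ± 16.2 CPM. Slc38a2 was thus well above Slc38a1 in these units. Of 9 genes of GABA, glycine and taurine handling, 4 were called above and 5 below, with the GABA-degrading enzyme gene Abat at 66.8 ± 1.60 CPM per kilobase, the taurine carrier gene Slc6a6 at 25.3 ± 2.42 and the mitochondrial glycine-forming enzyme gene Shmt2 at 24.4 ± 1.20. Over all 4 pathway lists, 39 genes in all, 16 were called above and 19 below, which is near the background of 44.0% and 48.1%, and 4 were under the filter.

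**Figure D4:**
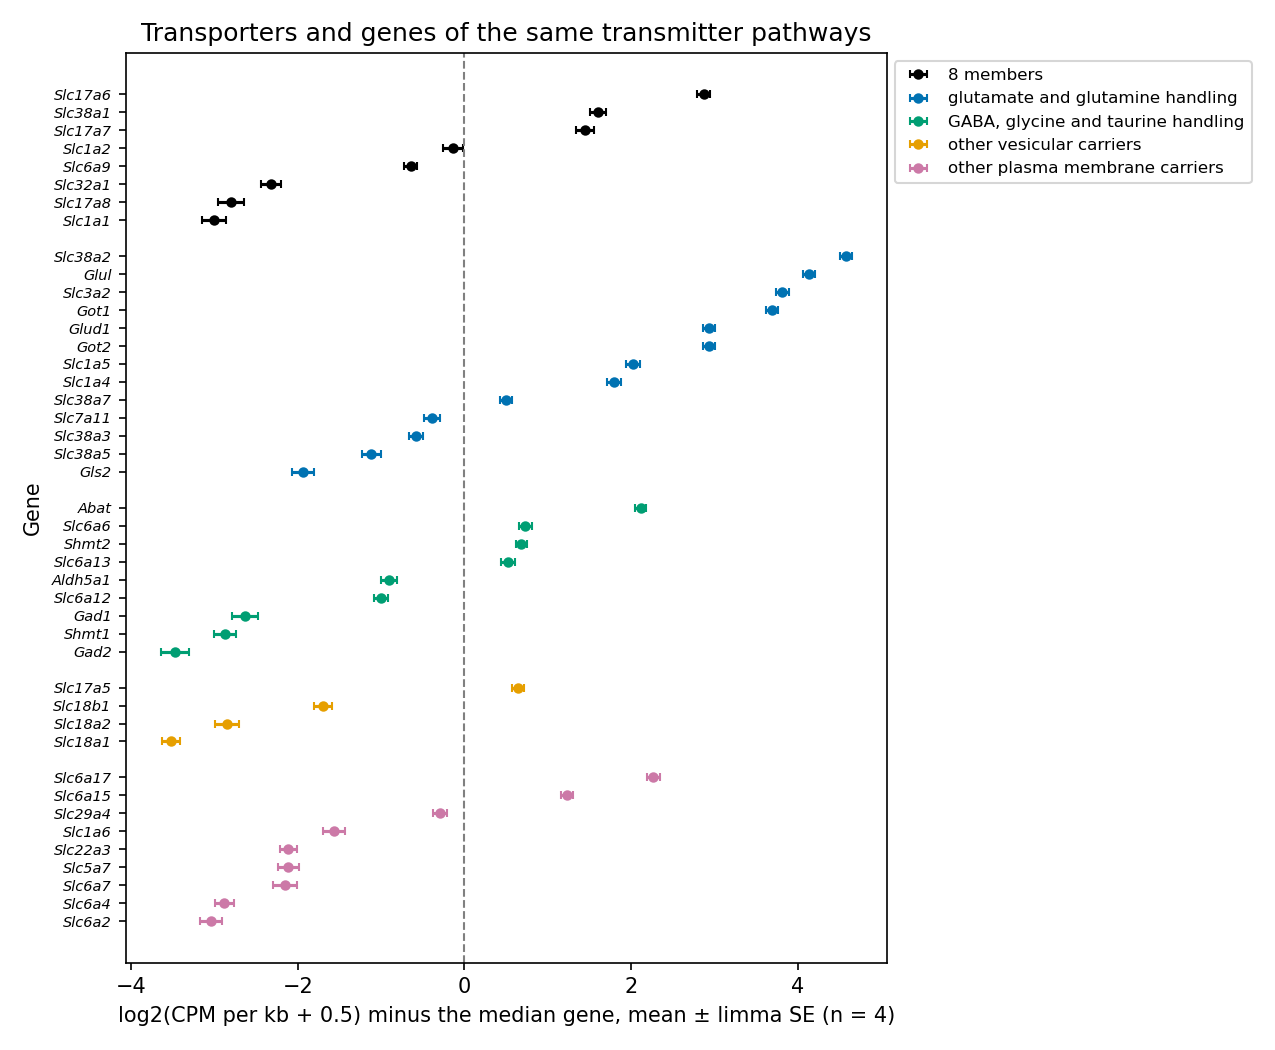
Points give the mean log2(CPM per kilobase + 0.5) minus the median detected gene, and bars the limma SE, for the 8 transporter genes and the 35 tested genes of the 4 pathway lists. Slc38a2 and Glul lie furthest to the right, and Gad2 and Slc18a1 furthest to the left.

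Genes whose levels over the 4 libraries lay closest to each transporter were found by the root mean square of the log2 differences in CPM per kilobase. For Slc17a6 these were Kif3a, a kinesin motor gene, at a distance of 0.049 and 113 ± 9.61 CPM per kilobase, and Ap3b2, an adaptor subunit of neuronal vesicles, at 0.063. For Slc38a1 they were Synj1 (0.076) and Clasp1 (0.086), and for Slc17a7 Elof1 (0.057) and Mrpl21 (0.082). For Slc1a2 they were Dnal1 (0.078) and Cnpy4 (0.11), for Slc6a9 Smc6 (0.019) and Pde4b (0.034), and for Slc32a1 Mrgbp (0.075) and Dnph1 (0.077). Esco1 (0.14) and Mtus2 (0.14) were closest to Slc17a8, and Enkur (0.076) and Vegfc (0.093) to Slc1a1. With 4 libraries the measure reflects the mean level for the most part, and 150 genes lay within 0.2 of Slc17a6.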

How the data were processed

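Ribosome footprints of 4 libraries were measured. The tools Cufflinks 2.2.1, Bowtie2 2.2.9, TopHat2 2.1.1 and FastQC 0.11.5 and the builds GRCm38.p4 and mm10 are listed in the submitters' processing notes. Their roles, the counting rule and the use of strand are not given in the sources used here. TPM is in the name of the table the authors deposited, but each column sums to 1000000 and 96.5% to 96.8% of values above 0 are within 0.05 of a whole multiple of 1 step per column, whatever the gene's length, as were all 32 values of the 8 genes. The deposited values were therefore used as CPM, and the step gave the depths. Counting intervals are 95% and cover counting error only.

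Identifiers were matched to GENCODE M21 (48052 of 48431). CPM were divided by the longest coding sequence. log2(CPM per kilobase + 0.5) minus the median of protein-coding genes with at least 1 CPM in every library was tested against 0 with limma 3.58.1 over protein-coding genes whose mean reached 1 CPM, and the variance between libraries over all genes at that mean, both with Benjamini-Hochberg adjustment over all genes tested and a threshold of 0.05. Ratios of 2 genes were tested with an exact sign-flip permutation test. The level test and the variance test were also run on simulated counts, drawn independently for each gene with the same noise setting. Differences between libraries shared by many genes were not simulated, and the outcome is not given here. Pairs of libraries differed beyond sampling noise (median chi-square of a gene 1.54 to 2.22), and 4 replicates were counted. Named genes followed a rule that took the 8 genes, the 3 highest of each pathway and marker list and the 2 closest genes, and exceptions are stated. The members and lists were chosen with earlier results of these data known. Alternatives were other pseudocounts, filters, lengths and scalings, and leaving out each library.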

Additional observations from a re-analysis of the deposited data

Results flagged for a closer look

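Of 32 values checked for a library far from the other 3, 1 was marked, and chance marks about 1 in 20. The log2 ratio of Slc38a1 to Slc17a7 was −0.25 in replicate 3 and 0.34, 0.27 and 0.26 in replicates 1, 2 and 4. In replicate 3 Slc17a7 had its highest value, 93.4 CPM, and Slc38a1 stood at 65.1 CPM.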

How the results depend on the processing

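Over all alternatives run, 330 values were counted as unchanged, 5 turned and 1 became a call. Unchanged means the same direction and side of the threshold or, for counts of genes, within 1.5 times the count reported. Part of this total was fixed in advance, so it is no measure of robustness. Ratios between genes could turn but not change side, since their permutation test cannot reach the threshold with so few libraries. Variance ratios could change side but not turn. Slc6a9 over Slc32a1 was counted both as neighbours and as related genes. Without the length correction the log2 difference of Slc38a1 over Slc17a7 turned to −0.11, and that of Slc1a2 from the median gene to 0.14. With unique coding words as length for the 8 genes only and the reads unchanged, Slc17a8 over Slc1a1 turned to −1.54 and Slc1a2 to 0.0079. Without replicate 2, Slc1a2 stood at 0.0053, and without replicate 4 it was called below the median at −0.26, so that 5 rather than 4 of the 8 genes were called below. Leaving out 1 library moved Slc38a1 over Slc17a7 between 0.094 and 0.29 and Slc17a8 over Slc1a1 between 0.089 and 0.36. The count of genes called above stayed at 3 and that called variable at 0 under each alternative run for it, and the pathway counts were 16 above and 18 to 23 below. Over all genes, 233 were called variable, 145 without replicate 2 and 105 without replicate 3, and 6784 were called below the median, 10680 with no filter on low values. The planned count test with edgeR was not run, since not all values of the table came out as whole reads. No paired analysis was possible because there is 1 group. Depth limits Slc1a1, Slc17a8 and Slc32a1, which rested on 8 to 58 reads a library.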

Other observations

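Other carriers of vesicles and the plasma membrane were measured in the same libraries, and of all tested genes 44.0% were called above the median gene and 48.1% below. Of 6 other vesicular carriers, 1 was called above, 3 below, and 2 were under the filter of a mean of 1 CPM. The lysosomal sialic acid carrier gene Slc17a5, a relative of the vesicular glutamate transporters, was the one above, at 23.8 ± 1.86 CPM per kilobase (SD, n = 4). Slc18b1, a vesicular polyamine carrier gene, was at 4.36 ± 0.867 and the vesicular monoamine carrier gene Slc18a2 at 1.69 ± 0.467 CPM per kilobase. Of 11 other plasma membrane carriers, 2 were called above the median gene, 7 below, and 2 were under the filter. Those above were the neutral amino acid carrier genes Slc6a17, found on synaptic vesicles, at 74.3 ± 5.79 CPM per kilobase, and Slc6a15 at 35.9 ± 1.96. The monoamine carrier gene Slc29a4 followed at 12.2 ± 0.934 CPM per kilobase.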
